A study of Caenorhabditis elegans with 43 samples.

Results

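The genes described here encode 7 proteins of the muscle filaments of Caenorhabditis elegans. They are unc-54, myo-3, unc-15, unc-22 and unc-89, listed as body wall muscle genes, and myo-1 and myo-2, listed as pharyngeal muscle genes. They were picked by name, and each had 1 row in a table of 20182 rows of ribosome footprint counts. Footprints are the stretches of mRNA that ribosomes shield from nuclease, so a gene's count follows the amount of its mRNA under translation.

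The table covers 43 libraries from whole animals of 4 strains. They are wild type N2, the single mutants let-7(n2853) and lin-41(xe11), and the strain with both alleles, lin-41(xe11);let-7(n2853), called the double mutant below. All were synchronised as arrested L1 larvae, fed bacteria at 25 °C and harvested every 2 h. The 10 libraries of let-7(n2853), sampled at 18 to 36 h of development, form the first time course. The other 3 strains, with 11 libraries each at 18 to 38 h, form the second. As background on the alleles, n2853 lowers the activity of the let-7 microRNA at the growth temperature used. The allele xe11 alters the sites in lin-41 mRNA through which let-7 represses it, in a way that restores pairing to the n2853 microRNA. Monosomes came from sucrose gradients in the first course and from size-exclusion chromatography in the second, per the labels' protocols. Strain let-7(n2853), time course and purification cannot be told apart.

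In each muscle cell, thick filaments made mainly of myosin slide along actin thin filaments and so shorten the cell. A myosin molecule is a pair of heavy chains with their light chains, and each thick filament is built around a core of paramyosin. The worm has 4 sarcomeric heavy chains. Body wall muscle uses UNC-54 (heavy chain B), which fills the arms of the filament, and MYO-3 (heavy chain A), which sits at its centre and is needed to start assembly. Pharyngeal muscle, which pumps food, uses MYO-1 (heavy chain D) and MYO-2 (heavy chain C). UNC-15 is paramyosin, UNC-22 is twitchin, a giant kinase of the titin family in the outer filament, and UNC-89 is an obscurin-like giant protein of the M-line. Paramyosin and UNC-89 are made in pharyngeal as well as body wall muscle.

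In the WBcel235 annotation unc-54 lies on chromosome I at 14855901 to 14863482, with 9 coding exons and 5889 coding bases. The second body wall heavy chain, myo-3, lies on chromosome V at 12226817 to 12234343 and has 5907 coding bases. Of the pharyngeal heavy chains, myo-1 is on chromosome I at 7258946 to 7267057 (5814 coding bases) and myo-2 on chromosome X at 12468061 to 12475348 (5841 coding bases). Paramyosin gene unc-15 (I, 7376604 to 7383197) is short, with 2616 coding bases. The giant genes unc-22 (IV, 11972697 to 12011007) and unc-89 (I, 4035702 to 4090885) have 21474 and 24243 coding bases in their longest of 9 and 16 coding transcripts. The table does not resolve transcripts. The 4 heavy chains are related in sequence, and how reads matching several of them were assigned is not given in the sources used here, so part of each heavy chain count may belong to another.

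Together the 7 genes held from 1.073 to 1.905% of the counts of a library. Library totals were 17331524 to 32197661 counts for let-7(n2853). They were lower in the second course, at 5014300 to 12345292 for N2, 6125219 to 12781895 for the double mutant and 7031861 to 12536418 for lin-41(xe11). The lowest count of any of the 7 genes in any library was 1709, for myo-2, where counting error alone is 2.42%. Levels below are in CPM, a gene's share of the counts of its scaled library in parts per 1000000. All 8 markers listed for pharyngeal muscle and all 7 for body wall muscle had counts, and no marker measured was at 0 in every library. The early window is 18 to 24 h (4 libraries per strain) and the late window 28 to 36 h (5 libraries). There is 1 library per strain and hour, so the hours within a window take the place of replicates. Between windows of a strain, a p-value reflects nothing but how far those hours spread. Contrasts between strains were fitted with hour as a factor, and their p-values reflect how far the strain difference varies over the hours. For the cycle fitted below they reflect the scatter around the fitted curve. A gene is called where the adjusted p over all genes tested is under 0.05, from edgeR unless another tool is named, and a log2 change is printed with its standard error.

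The mutated gene lin-41 stood at 48.07 to 64.99 CPM in early N2 and at 6.356 to 19.44 CPM in late N2, a fall of log2 −2.55 ± 0.33 (adjusted p = 0.00646). Late lin-41 was higher than in N2 by 1.60 ± 0.24 in lin-41(xe11) (adjusted p = 0.0023) and by 1.44 ± 0.24 in the double mutant (adjusted p = 0.00363). In let-7(n2853) the change from early to late was −0.26 ± 0.09 (adjusted p = 0.0721).

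Per kilobase of coding sequence the level of unc-54 was the highest, with a median over the 43 libraries of 1493 CPM per kb and a range of 1110 to 1844. Paramyosin gene unc-15 came next at 928.8 (617.0 to 1173 CPM per kb), and myo-3 followed at 215.5 (162.6 to 349.1). The ranges of unc-54 and unc-15 overlapped over all libraries, but unc-54 was above unc-15 within each library, since the ratio of unc-15 to unc-54 did not pass 0.705. The pharyngeal heavy chains had the next levels, myo-2 at 65.25 (28.14 to 89.36 CPM per kb) and myo-1 at 61.95 (34.25 to 90.68), and these neighbours do not differ beyond their spread. Twitchin gene unc-22 stood at 43.72 (29.25 to 55.70), overlapping both, and unc-89 was lowest at 15.39 (10.03 to 21.13 CPM per kb). The lengths used are those of the longest coding transcripts. The shortest have 4179 coding bases for unc-89 and 1659 for unc-15, so the ranks of these genes depend on which transcripts are translated.

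**Figure D1:**
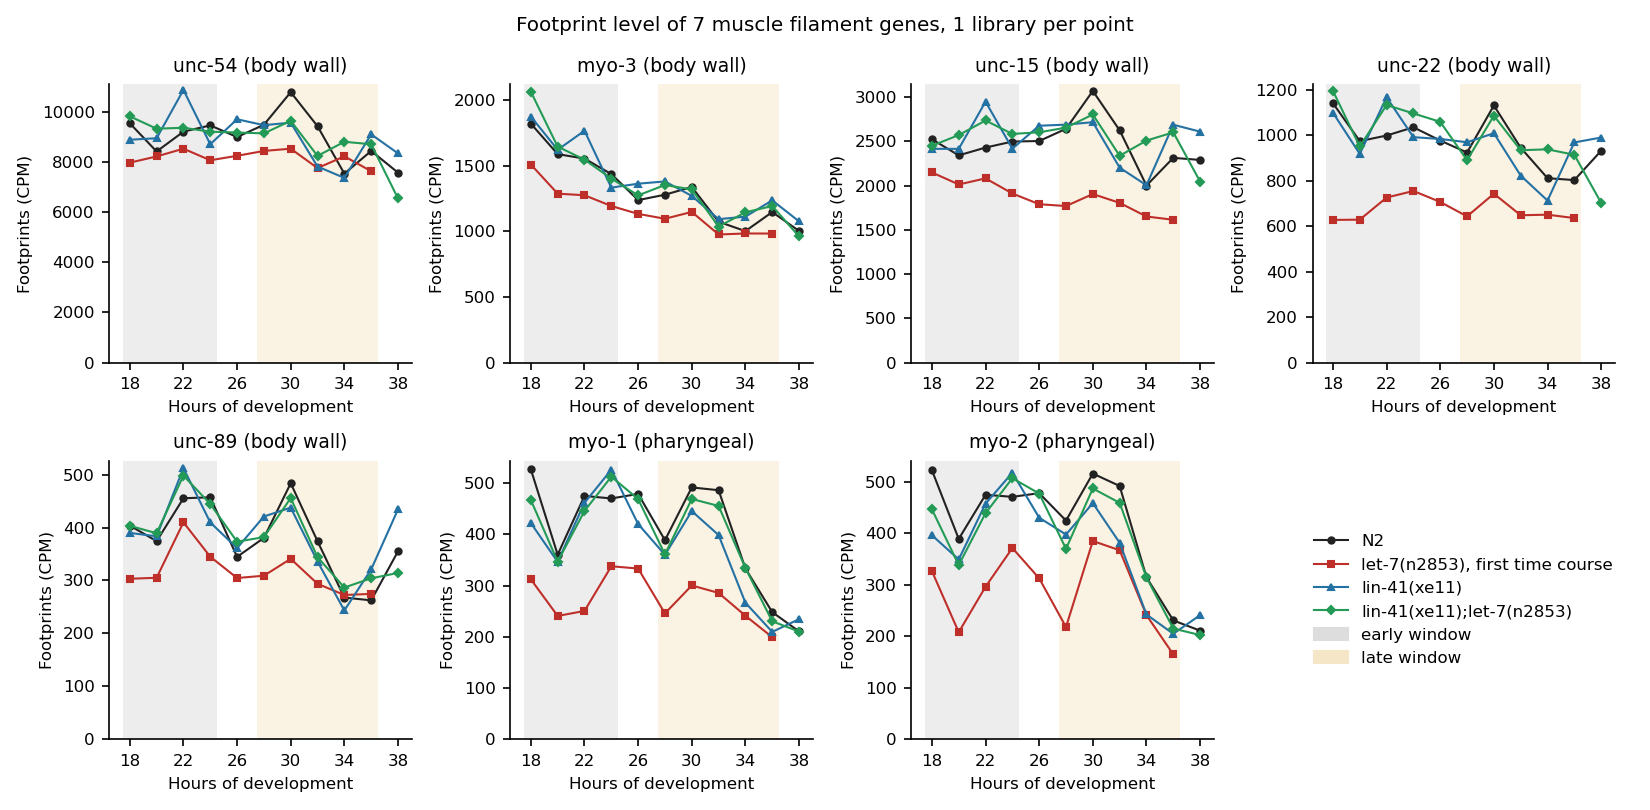
Footprint level (CPM, linear axis from 0) of each of the 7 genes against hours of development, 1 library per point, with the early and late windows shaded; black circles are N2, red squares let-7(n2853), blue triangles lin-41(xe11) and green diamonds the double mutant. In N2 myo-3 runs from 1819 CPM at 18 h to 1002 CPM at 38 h, while myo-1 and myo-2 dip at 20 and 28 h and end near 210 CPM.

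Among the body wall heavy chains, myo-3 had a lower mean late than early in all 4 strains and was called lower in 3 of them. The gene unc-54 was not called in any. In N2 myo-3 stood at 1819, 1587, 1553 and 1435 CPM at 18, 20, 22 and 24 h and at 1278, 1337, 1072, 1001 and 1146 CPM from 28 to 36 h. The early and late values did not overlap, and the highest library of all was 18 h. The mean went from 1599 ± 160.5 CPM (SD, n = 4) to 1167 ± 139.8 (SD, n = 5), a log2 change of −0.45 ± 0.11 (adjusted p = 0.0288). Of all genes tested in N2, 5.45% were called lower late, and of the 7 filament genes 1 was, myo-3. From the level of a single gene in whole animals, a smaller share of a cell type and less of the gene's mRNA per cell cannot be told apart. Over the same hours unc-54, of the same muscle, changed by −0.00 ± 0.12 (adjusted p = 0.99). The part of each in the fall of myo-3 was not tested.

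In let-7(n2853) myo-3 went from 1508, 1286, 1274 and 1192 CPM to 1095, 1147, 975.3, 982.8 and 982.4 CPM. The windows again did not overlap, the change was −0.34 ± 0.09 (adjusted p = 0.0308), and myo-3 was the 1 gene of the 7 called lower, against 9.73% of all genes. In lin-41(xe11) the values were 1873, 1620, 1765 and 1332 CPM early and 1379, 1269, 1092, 1111 and 1235 CPM late. Here the 24 h library lay below the 28 h library, so the windows overlapped. The change was −0.44 ± 0.12 (adjusted p = 0.0374), again the 1 call of 7, with 6.79% of all genes called lower. In the double mutant myo-3 went from 2062, 1644, 1545 and 1401 CPM to 1352, 1318, 1036, 1144 and 1192 CPM without overlap. That change, −0.46 ± 0.13, was not called (adjusted p = 0.0542), so 0 of the 7 genes were called by edgeR in the double mutant. At an unadjusted p under 0.05 it was 1, and DESeq2 called 1, myo-3 at −0.45 (adjusted p = 0.00963). Of all genes 4.77% were called lower there, and without 24 h edgeR called myo-3 too (adjusted p = 0.0445). Over all 15 alternatives its adjusted p ran from 0.00963 to 0.134.

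These calls stand close to the threshold. Leaving out 1 hour at a time ended the myo-3 call in 6 of 9 fits in N2 and in let-7(n2853) and in 7 of 9 in lin-41(xe11), with changes from −0.51 to −0.39, −0.39 to −0.27 and −0.53 to −0.37. The hours at stake were 18, 20, 22, 32, 34 and 36 h in each of these strains, and also 30 h in lin-41(xe11). The adjusted p did not pass 0.0824, 0.0839 and 0.102, the changes kept their direction, and DESeq2 and the deposited log2 values gave 1 call each in lin-41(xe11) and in N2.

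The main body wall myosin, unc-54, stood at 9532, 8408, 9198 and 9447 CPM in early N2 and at 9472, 10770, 9414, 7525 and 8430 CPM late. The windows overlapped, with the highest library at 30 h and the lowest at 34 h. Its change was −0.00 ± 0.12 in N2 (adjusted p = 0.99), −0.01 ± 0.07 in let-7(n2853) (0.924), −0.08 ± 0.08 for the double mutant (0.597) and −0.11 ± 0.12 for lin-41(xe11) (0.583).

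**Figure D2:**
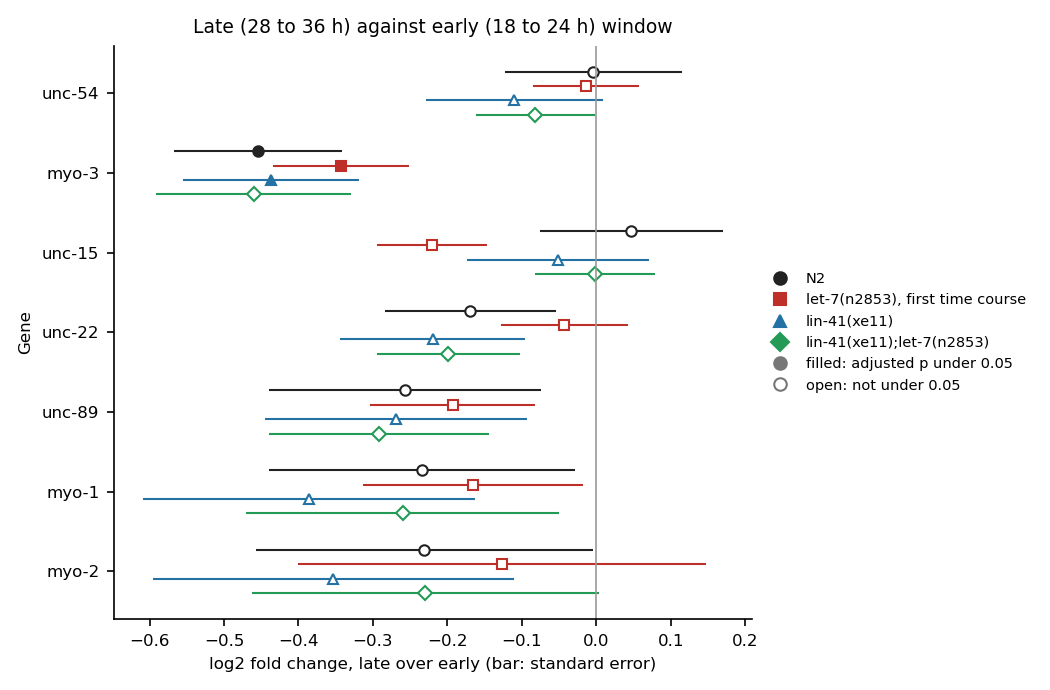
Log2 fold change of each gene from the early (18 to 24 h) to the late window (28 to 36 h) within each strain, with its standard error as a bar; filled symbols have an adjusted p under 0.05 and open symbols do not. The 3 filled symbols are those of myo-3, at −0.45 in N2, −0.34 in let-7(n2853) and −0.44 in lin-41(xe11).

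The ratio of the heavy chains within a library does not depend on scaling between libraries. Per coding length, myo-3 over unc-54 was 0.1902, 0.1882, 0.1683 and 0.1514 at the early hours of N2 and 0.1345, 0.1237, 0.1135, 0.1326 and 0.1356 at the late hours. Early and late ratios did not overlap in any of the 4 strains. The mean went from 0.175 ± 0.0183 (SD, n = 4) to 0.128 ± 0.00934 (n = 5) in N2, from 0.16 ± 0.0193 to 0.127 ± 0.00553 in let-7(n2853), from 0.176 ± 0.0255 to 0.141 ± 0.00741 in lin-41(xe11) and from 0.176 ± 0.0248 to 0.135 ± 0.00843 in the double mutant. In each strain the highest ratio was at 18 h, from 0.189 to 0.21.

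Paramyosin and the giant proteins were not called between the windows. Paramyosin gene unc-15 stood at 2524, 2342, 2430 and 2498 CPM in early N2 and at 2642, 3070, 2625, 2001 and 2314 CPM late, with overlap (0.05 ± 0.12, adjusted p = 0.836). In let-7(n2853) it went from 2149, 2013, 2082 and 1911 CPM to 1769, 1905, 1805, 1651 and 1614 CPM. Those values did not overlap, and the change of −0.22 ± 0.07 was not called by edgeR (adjusted p = 0.0688) but was by DESeq2 (−0.21, adjusted p = 0.00234) and from the deposited log2 values (−0.36, adjusted p = 0.0273). Its adjusted p over 15 alternatives ran from 0.00234 to 0.167. The ratio of unc-15 to unc-54 per coding length went from 0.561 ± 0.0321 (SD, n = 4) to 0.486 ± 0.0282 (n = 5) in let-7(n2853), without overlap. In N2 it was 0.603 ± 0.0158 and then 0.623 ± 0.0159, with overlap.

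Twitchin gene unc-22 ran from 975.1 to 1142 CPM in early N2 (median 1018) and from 803.5 to 1132 CPM late (median 924.8), with overlap (−0.17 ± 0.12, adjusted p = 0.355). Its late minus early change in the other strains lay between −0.22 and −0.04, with adjusted p from 0.229 to 0.788. The M-line gene unc-89 ran from 374.2 to 457.1 CPM in early N2 and from 262.3 to 483.7 CPM late. Its windows overlapped in all 4 strains, and its changes lay between −0.29 and −0.19 (adjusted p from 0.257 to 0.373). In let-7(n2853) unc-22 did not pass 755.6 CPM in any library, while the lowest N2 library held 803.5 CPM. That gap sets one time course against the other and was not tested.

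The pharyngeal heavy chains myo-1 and myo-2 followed each other closely and were not called between the windows in any strain. In early N2 myo-1 stood at 527.2, 360.4, 475.3 and 470.4 CPM and late at 388.8, 491.9, 486.5, 333.5 and 248.2 CPM. For myo-2 the values were 522, 388.6, 474.3 and 470.3 CPM early and 424.2, 515.5, 491.4, 314.2 and 230.4 CPM late. Both genes were low at 20 h, higher at 22 and 24 h, low again at 28 h and higher again at 30 h. Of the hours in the windows they were lowest at 36 h, and the windows overlapped. The changes were −0.23 ± 0.21 (adjusted p = 0.481) and −0.23 ± 0.23 (adjusted p = 0.53). In the other strains they lay between −0.39 and −0.17 for myo-1 and between −0.35 and −0.13 for myo-2, with adjusted p from 0.284 to 0.811.

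Within the late window the levels of both pharyngeal genes broke off after 32 h. The hours from 34 h onward were therefore set against 18 to 32 h, a boundary placed after the values were seen, so its p-values are no independent support. In N2 myo-1 had its lowest, median and highest values at 360.4, 477.2 and 527.2 CPM over the 8 libraries to 32 h, and stood at 333.5, 248.2 and 210.4 CPM at 34, 36 and 38 h. The corresponding values of myo-2 were 388.6, 475.9 and 522 CPM and then 314.2, 230.4 and 210.5 CPM. For both genes all 3 later libraries lay below all 8 earlier ones, and neither gene regained its level by 38 h.

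By edgeR the change was −0.80 ± 0.16 for myo-1 (adjusted p = 0.00562) and −0.90 ± 0.14 for myo-2 (adjusted p = 0.00187) in N2. In lin-41(xe11) it was −0.84 ± 0.13 (adjusted p = 0.00715) and −0.89 ± 0.12 (adjusted p = 0.00502), and in the double mutant −0.77 ± 0.17 (adjusted p = 0.022) and −0.85 ± 0.17 (adjusted p = 0.0172). The groups did not overlap for either gene in these 3 strains. In let-7(n2853), with 2 later libraries and values at 34 h of 241.1 and 240.7 CPM, they overlapped, and the changes of −0.39 ± 0.16 and −0.62 ± 0.26 were not called (adjusted p = 0.175 and 0.191). Leaving out any 1 hour ended neither call in N2. Without 36 h the myo-1 call of lin-41(xe11) ended (adjusted p = 0.051), and without 36 or 38 h both calls of the double mutant ended (adjusted p from 0.0952 to 0.117).

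From 34 h onward the body wall genes also stood lower, by less. In N2 unc-89 fell by 0.47 ± 0.13 (adjusted p = 0.0226) and myo-3 by 0.43 ± 0.15 (adjusted p = 0.0492), while unc-54 at −0.26 ± 0.10, unc-22 at −0.26 ± 0.10 and unc-15 at −0.23 ± 0.10 were not called (adjusted p = 0.0735, 0.0572 and 0.104). So 4 of the 7 genes were called lower in N2, where 20.1% of all genes were and the median change of all genes was −0.12. In lin-41(xe11) 2 of 7 were called lower, myo-1 and myo-2, with 12.5% of all genes. In the double mutant 3 of 7 were, with 9.38% of all genes, the third being unc-89 (−0.45 ± 0.11, adjusted p = 0.0328), whose call ended without 24, 34, 36 or 38 h (up to 0.134). In let-7(n2853) edgeR and DESeq2 called 0 of 7, with 3 at an unadjusted p under 0.05 and 0.0171% of all genes called lower. The call of myo-3 in N2 ended in 10 of 11 fits that left out 1 hour (all but 32 h; adjusted p up to 0.15), and that of unc-89 without 34 or 36 h (up to 0.114). With DESeq2's size factors myo-3 was at −0.30 (adjusted p = 0.148) and unc-89 at −0.34 (adjusted p = 0.0761), and in the double mutant unc-89 was at −0.32 (adjusted p = 0.098). Over 16 alternatives the adjusted p ran from 0.0189 to 0.15 for myo-3 in N2, from 0.0116 to 0.114 for unc-89 in N2 and from 0.0171 to 0.134 for unc-89 in the double mutant.

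Listed markers of other cell types moved over the same hours. Summed germline markers (12 of 12 measured) went from 467 to 729 CPM in the early libraries of N2 to 1090 to 1970 CPM in the late ones, 2.56 times the early level. Called higher were 10 of 12, against 9.42% of all genes. Summed neuron markers (10 of 10 measured) went from 432 to 537 CPM to 252 to 392 CPM, 0.669 times. Called lower were 6 of 10, against 5.45% of all genes. In the other strains the germline ratio was 2.52 to 2.57 and the neuron ratio 0.629 to 0.646. The 6 markers of other pharyngeal cells summed to 127 to 299 CPM early and 89.5 to 304 CPM late in N2. From 34 h onward their median change was −0.86, with 2 of 6 called lower, beside a median of −0.90 for the 8 pharyngeal muscle markers, of which 7 were tested and 5 called lower. Myosin genes myo-1 and myo-2 are among those 8, and 20.1% of all genes were called lower from 34 h onward in N2. Intestine markers also stood lower from 34 h onward in N2, with 4 of 7 tested called lower (median −0.45). In lin-41(xe11) 3 of 7 were called lower, against 12.5% of all genes. Late against early in N2, 0 of 7 tested intestine markers, 0 of 2 nonmuscle myosins, 1 of 8 epidermis markers (higher) and 1 of 4 tested sex muscle and somatic gonad markers (lower) were called by edgeR. The part of these shifts in the changes of the filament genes was not tested.

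**Figure D3:**
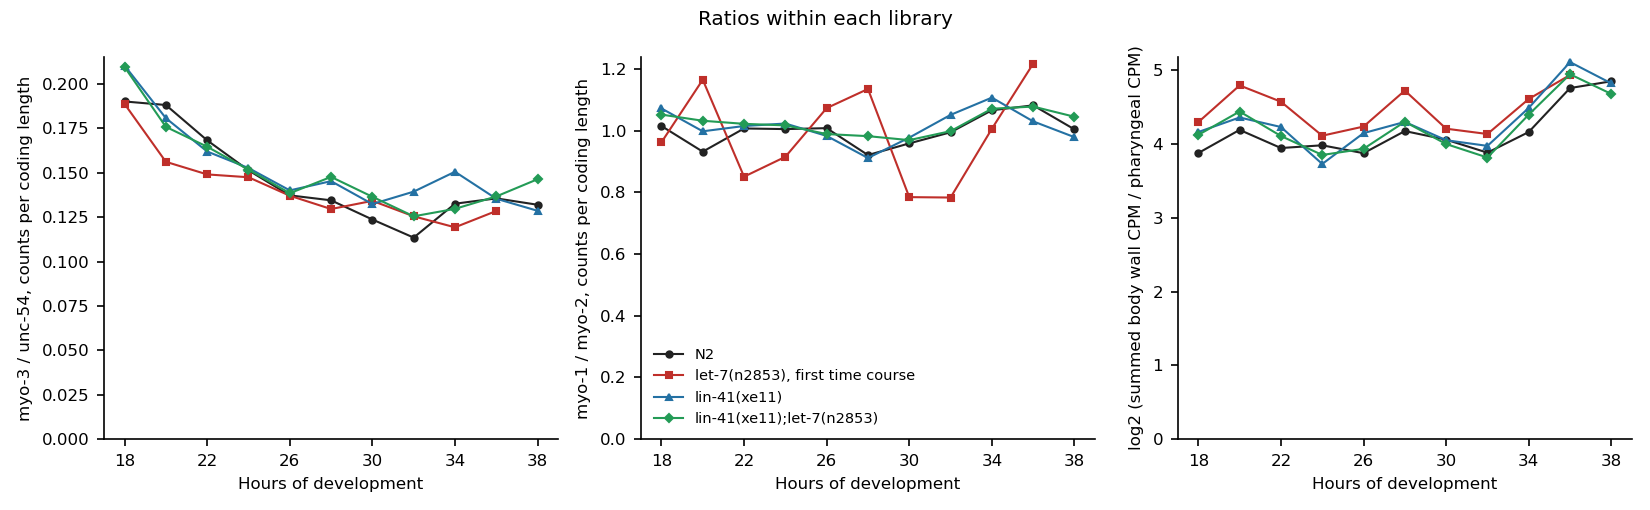
Ratios within each library against hours of development: myo-3 over unc-54 per coding length (left), myo-1 over myo-2 per coding length (middle), and log2 of the summed CPM of the 5 body wall genes over that of myo-1 and myo-2 (right), 1 library per point. The left ratio is highest at 18 h (0.189 to 0.21) and averages 0.127 to 0.141 in the late windows, the middle one stays near 1 with its widest swings in let-7(n2853) (0.783 to 1.22), and the right one is highest at 36 or 38 h.

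The pharyngeal heavy chains had nearly equal counts per coding length, though part of each count may belong to another heavy chain, as said above. Per coding length, myo-1 over myo-2 averaged 0.999 ± 0.0492 (SD, n = 11 hours) in N2, 1.02 ± 0.0362 in the double mutant, 1.01 ± 0.053 in lin-41(xe11) and 0.989 ± 0.157 (n = 10) in let-7(n2853). The range was 0.911 to 1.11 over the 33 libraries of the second course and 0.783 to 1.22 in let-7(n2853). In that strain the ratio was highest at 20, 28 and 36 h, when both genes were low and myo-2 was the lower of the pair. At 28 h, for instance, myo-1 stood at 245.7 CPM and myo-2 at 217.5 CPM, and at 30 h at 300.3 and 384.6 CPM.

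Set against each other within a library, log2 of the summed body wall level over the summed pharyngeal level was 4.0 ± 0.135 (SD, n = 4) early and 4.21 ± 0.329 (n = 5) late in N2, with overlap. It peaked at 4.85 at 38 h in N2, and at 36 h in the other strains, at 4.94 in let-7(n2853), 4.95 for the double mutant and 5.11 for lin-41(xe11). With body wall myosins alone, or without unc-15 and unc-89, which the pharynx also makes, the late minus early difference in N2 was 0.204 and 0.195, beside 0.209 with all 5 genes. Each of these body wall sums is mostly unc-54, which averaged 9123 CPM in late N2. The next gene is unc-15, at 2530 CPM, in the sum of all 5 genes and myo-3, at 1167 CPM, in the other sums. The closeness of these differences therefore says little about the other body wall genes. Gene by gene, the changes in N2 were −0.45 for myo-3, −0.26 for unc-89, −0.17 for unc-22, −0.00 for unc-54 and 0.05 for unc-15. They were −0.23 for myo-1 and for myo-2, so the body wall sums do not stand for each body wall gene.

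Many larval genes of the worm rise and fall once per molt. A cycle of 8 h was fitted to log2(CPM + 1) with limma, beside a linear trend, and called in 8.34% of all genes in N2, 31.1% in let-7(n2853), 19.4% for the double mutant and 22.7% for lin-41(xe11). The M-line gene unc-89 was called in 3 strains. In N2 it was at 403.7, 374.2, 455.3, 457.1, 344.5 and 380.4 CPM from 18 to 28 h and at 483.7, 374.1, 267.6, 262.3 and 354.9 CPM from 30 to 38 h. In all 4 strains its level at 30 h was above, and at 26 h below, both neighbouring hours, and in 3 of 4 (all but N2) 22 h was above both neighbours.

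The fitted amplitude of unc-89 was 0.29 in N2 (adjusted p = 0.0374), with peaks at 22.7 and 30.7 h and 1.49-fold from trough to peak. It was 0.18 in let-7(n2853) (adjusted p = 0.036, 1.28-fold) and 0.30 in lin-41(xe11) (adjusted p = 0.0142, 1.52-fold), with first peaks at 22.4 and 22.0 h. The amplitude of 0.20 in the double mutant was not called (adjusted p = 0.0526). So 1 of 7 genes was called in N2 (8.34% of all genes) and 1 in lin-41(xe11) (22.7%). In let-7(n2853) it was 2 (31.1%) and in the double mutant 0 (19.4%). With so few genes, these counts do not set the filament genes apart from all genes. In the double mutant 2 had an unadjusted p under 0.05, and edgeR on counts called 0. Leaving out 1 hour ended the unc-89 call in 10 of 11 fits in N2 (all but 28 h, adjusted p up to 0.0935), in 7 of 10 in let-7(n2853) (18, 22, 24, 28, 30, 34 or 36 h, up to 0.151) and in 2 of 11 in lin-41(xe11) (22 or 34 h, up to 0.0828). In the double mutant it was called without 20 or 38 h (adjusted p down to 0.0457).

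The largest fitted cycle among the 7 genes was that of myo-2 in let-7(n2853). Its values were 326.1, 207.5, 295.8, 370.9 and 312.1 CPM from 18 to 26 h and 217.5, 384.6, 366.6, 240.7 and 164.4 CPM from 28 to 36 h. The amplitude was 0.48 ± 0.09 (adjusted p = 0.0107), 1.96-fold from trough to peak, with peaks at 23.8 and 31.8 h, and leaving out any 1 hour did not end the call (adjusted p up to 0.0378). In the second course myo-2 was not called (amplitudes of 0.26 to 0.34, adjusted p from 0.148 to 0.463). Nor was myo-1 in any strain (0.24 to 0.33, adjusted p from 0.0571 to 0.335). Leaving out 1 hour gave calls of myo-1 in let-7(n2853) without 30 h, in lin-41(xe11) without 28 or 38 h and in the double mutant without 38 h, and of myo-2 in lin-41(xe11) without 28 h (adjusted p from 0.0247 to 0.0457). Both pharyngeal genes were below both neighbouring hours at 20 and at 28 h in all 4 strains, and above both at 30 h. The heavy chains unc-54 and myo-3 had amplitudes of 0.02 to 0.12, none of them called (adjusted p from 0.383 to 0.947). For unc-15 and unc-22 they were 0.05 to 0.15 (adjusted p from 0.248 to 0.891).

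**Figure D4:**
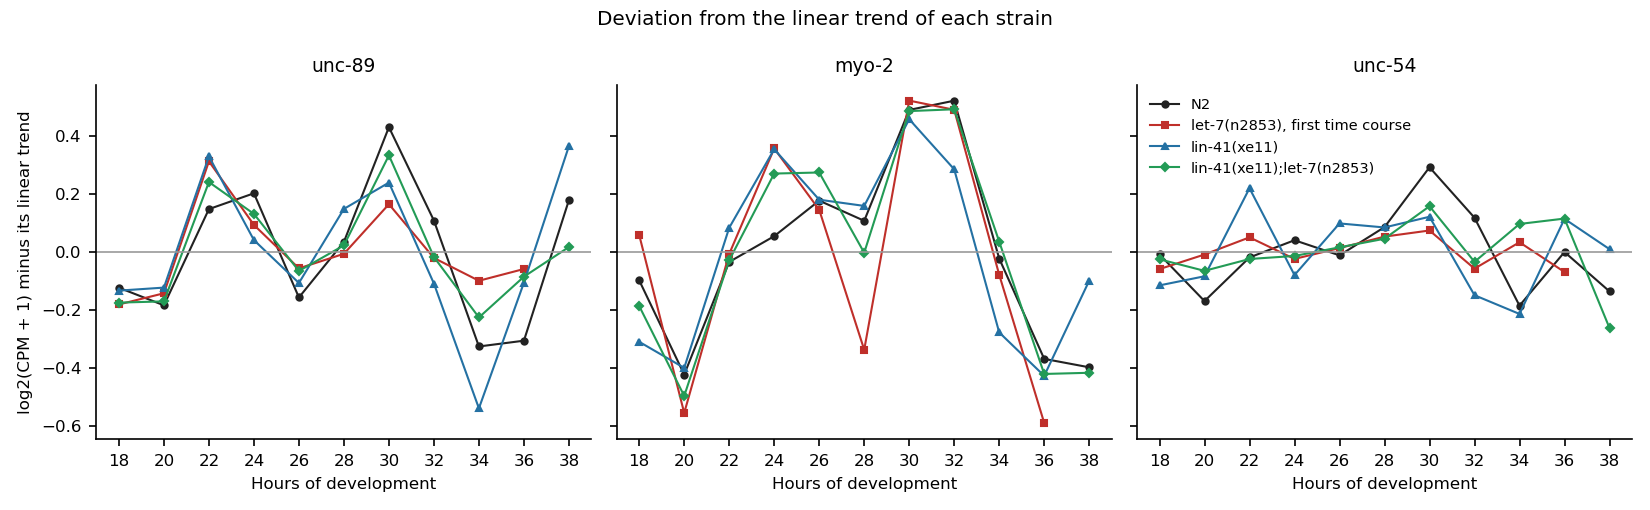
Deviation of log2(CPM + 1) from the linear trend of each strain against hours of development, for unc-89, myo-2 and unc-54, 1 library per point. The fitted cycle of unc-89 peaks near 22.7 and 30.7 h in N2, myo-2 has troughs at 20 and 28 h that are deepest in let-7(n2853), and unc-54 stays closest to 0.

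In the late window the mutants of the second course were compared with N2 hour by hour. No filament gene was called by edgeR in lin-41(xe11) against N2, where 0.422% of all genes were called. The pharyngeal pair came nearest. For myo-1 late values were 360.2, 445.7, 398.8, 266.6 and 209.5 CPM in lin-41(xe11), against 388.8, 491.9, 486.5, 333.5 and 248.2 CPM in N2. For myo-2 they were 397.1, 458.1, 381.1, 241.9 and 204.4 CPM against 424.2, 515.5, 491.4, 314.2 and 230.4 CPM. Both genes were lower than in N2 at each of the 5 hours, while the ranges of the groups overlapped. Outside the late window both were higher than in N2 at 24 and 38 h and lower at the other hours. At 38 h myo-1 stood at 234.5 CPM in lin-41(xe11) against 210.4 CPM in N2, and myo-2 at 240.7 against 210.5 CPM.

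Their changes were −0.22 ± 0.06 for myo-1 (unadjusted p = 0.000957, adjusted p = 0.127) and −0.23 ± 0.07 for myo-2 (unadjusted p = 0.00262, adjusted p = 0.226). They are the 2 of 7 genes with an unadjusted p under 0.05, and DESeq2 called 1, myo-1 (−0.22, adjusted p = 0.0325). Over 17 alternatives the change of myo-1 ran from −0.25 to −0.13 and its adjusted p from 0.0325 to 1. The other 5 genes lay between −0.08 and 0.06. As late minus early change against N2 the values were −0.16 ± 0.08 for myo-1 and −0.12 ± 0.10 for myo-2 (adjusted p = 0.967 and 0.983).

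In the double mutant against N2, 0 of 7 genes were called by edgeR or DESeq2, none had an unadjusted p under 0.05, and 0.844% of all genes were called. The changes lay between −0.10 and 0.05, with myo-1 at −0.07 ± 0.06 and myo-2 at −0.10 ± 0.07. Between the double mutant and lin-41(xe11) 0 of 7 were called by either tool, 1 had an unadjusted p under 0.05 (myo-1, 0.15 ± 0.06, p = 0.0173, adjusted p = 0.766), and 0.126% of all genes were called. These contrasts share libraries, since N2 serves both mutants.

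**Figure D5:**
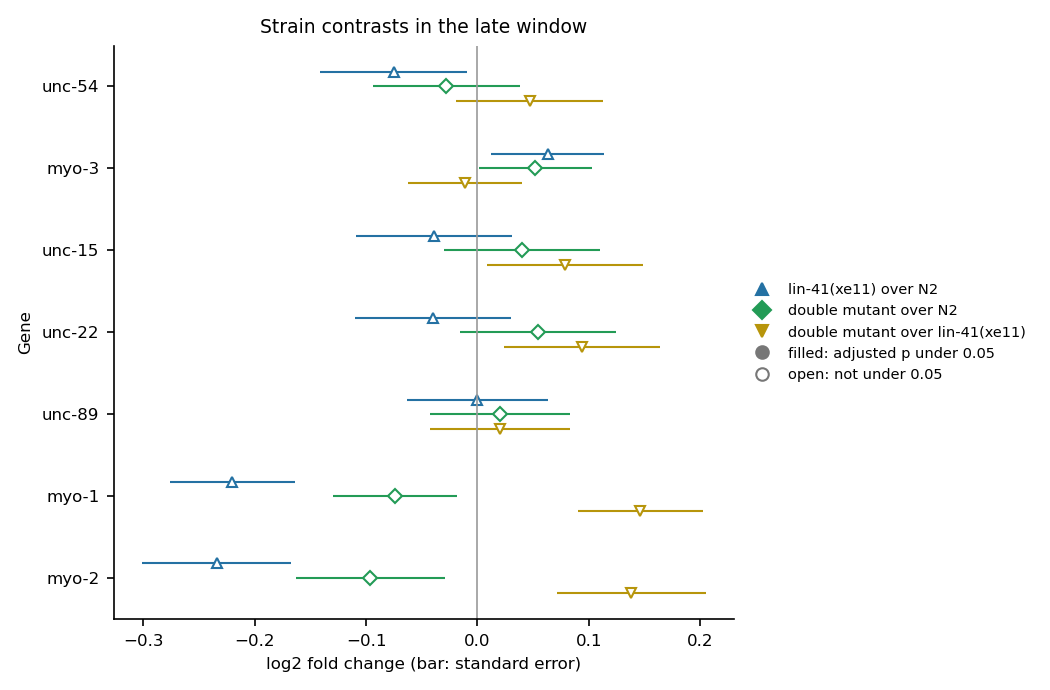
Log2 fold change of each gene between strains in the late window, with its standard error as a bar, for lin-41(xe11) over N2, the double mutant over N2 and the double mutant over lin-41(xe11). No symbol is filled; myo-1 and myo-2 lie at −0.22 and −0.23 in lin-41(xe11) over N2 and the other 5 genes between −0.08 and 0.06.

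The late minus early change itself was also compared between strains. For let-7(n2853) against N2, edgeR and DESeq2 called 0 of 7 genes (0.023% of all genes called), and 1 had an unadjusted p under 0.05. That gene was unc-15, at −0.26 ± 0.10 (adjusted p = 0.448). The fall of myo-3 differed from that in N2 by 0.12 ± 0.08 in let-7(n2853) (adjusted p = 0.657), by 0.03 ± 0.08 in lin-41(xe11) and by 0.00 ± 0.08 in the double mutant (adjusted p = 1 in both). For lin-41(xe11) against N2 both tools called 0 of 7, with none at an unadjusted p under 0.05 and 0.0% of all genes called. The double mutant against N2 gave the same counts for the 7 genes, with 0.0148% of all genes called. By edgeR, lin-41 itself was also not called in any of these comparisons with N2, despite larger differences. They were 2.37 ± 0.33 for let-7(n2853) (adjusted p = 0.0946), 1.47 ± 0.33 for lin-41(xe11) (adjusted p = 0.707) and 1.30 ± 0.33 for the double mutant (adjusted p = 0.659). The lack of calls among the 7 genes therefore does not show that their changes were equal between strains.

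The genes most alike in pattern were found by Pearson correlation of log2(CPM + 1) over the 33 libraries of the second course, among 5531 genes. These points share strains, hours and depth, so the values are descriptions. For myo-1 the nearest gene was myo-2 (r = 0.990), and for both the next was sca-1 (0.947 and 0.938), the calcium pump of the sarcoplasmic reticulum. The third were F13C5.5 for myo-1 (0.938) and the sodium-calcium exchanger ncx-2 for myo-2 (0.929). How reads shared by myo-1 and myo-2 were assigned is not given, and their part in the r of 0.990 was not tested. For myo-3 the nearest were the troponin I gene tni-1 (0.957), the GABA receptor gene unc-49 (0.932) and mec-7 (0.927), a tubulin of touch neurons.

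The nearest genes to unc-54 were dim-1 (0.895), a protein of the muscle attachment sites, unc-15 (0.890) and unc-22 (0.814). Those nearest to unc-15 were unc-54, him-4 (0.789) and cyp-33C9 (0.760). Twitchin gene unc-22 was nearest to ttn-1 (0.907), the worm titin, then to kin-2 (0.852), the regulatory subunit of protein kinase A, and to K09A9.6 (0.836). For unc-89 they were unc-115 (0.932), myo-5 (0.928), a further myosin gene, and K07C11.7 (0.893). Between the members, the lowest values were those of unc-15 with myo-1 (0.389) and with myo-3 (0.391).

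Other muscle genes were read from 6 lists. In N2, late against early, 14.9% of all genes were called in either direction, 1112 higher and 643 lower, with a median change of −0.00. The corresponding shares were 19.5% in let-7(n2853), 15.9% in lin-41(xe11) and 11.7% for the double mutant. Among 19 thin filament genes 2 were called higher and 1 lower (median 0.07). The actin gene act-2 rose from 387 ± 34.6 to 742 ± 175 CPM (SD, n = 4 and 5; 0.94 ± 0.17, adjusted p = 0.0106). The actins act-1 to act-4 are nearly identical, so which of them the reads came from is uncertain. Troponin I gene tni-3 rose (0.44 ± 0.08, adjusted p = 0.0113), while tni-1, also a troponin I gene, fell from 178 ± 24.9 to 113 ± 25.9 CPM (−0.65 ± 0.17, adjusted p = 0.0348).

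The gene tni-1 fell in the other 3 strains as well (−0.74 ± 0.13 in let-7(n2853), −0.57 ± 0.13 for the double mutant and −0.70 ± 0.14 for lin-41(xe11), adjusted p = 0.00895, 0.0268 and 0.0148). The actin gene act-2 rose in each of them (0.80 to 0.90, adjusted p from 0.00395 to 0.0105). Troponin gene tni-3 was called in N2 and not in the other strains (0.16 to 0.25, adjusted p from 0.0698 to 0.305). As late minus early change against N2 it was at −0.28 in let-7(n2853), −0.18 in lin-41(xe11) and −0.23 for the double mutant, none of them called (adjusted p = 0.376, 0.95 and 0.779). In the late window tni-3 was lower than in N2, with changes of −0.26 ± 0.05 in lin-41(xe11) (adjusted p = 0.0187) and −0.25 ± 0.05 for the double mutant (adjusted p = 0.0121). It was the 1 thin filament gene of 19 called in each of these contrasts.

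Of 13 myosin light chain, thick filament assembly and giant protein genes, the list closest to the 7, edgeR called none in N2 (median −0.06) or in the double mutant, 2 lower in let-7(n2853) and 1 lower in lin-41(xe11). Of 18 measured genes of dense bodies, M-lines and attachments 1 was called in N2, the vinculin gene deb-1 (−0.42 ± 0.10, adjusted p = 0.023). It was also called in let-7(n2853) and lin-41(xe11) (−0.42 and −0.40, adjusted p = 0.0222 and 0.022). In the double mutant it was at −0.39 (adjusted p = 0.0828).

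Of 20 muscle excitation and calcium genes 6 were called lower in N2 and 6 to 9 in the other strains, with none higher and medians of −0.56 to −0.46. Among them in N2 were the pharyngeal potassium channel exp-2 (−0.78 ± 0.20, adjusted p = 0.0315), the calcium channel subunit unc-36 (−0.65 ± 0.17, adjusted p = 0.0318), unc-49 (−0.58 ± 0.15, adjusted p = 0.0367) and the acetylcholine receptor subunit unc-38 (−0.95 ± 0.26, adjusted p = 0.0404). Several of these genes are also active in neurons, whose markers fell as given above. Of 7 tested muscle transcription factors 1 was called lower in N2, the pharyngeal factor ceh-22, at a low level (1.84 ± 0.487 to 0.714 ± 0.253 CPM, adjusted p = 0.0218). In let-7(n2853) 4 of 8 tested were called lower and 1 higher, in lin-41(xe11) 2 of 6 were called lower, and in the double mutant 0 of 5 were called by edgeR. The medians over the 4 strains lay between −0.63 and −0.37. Among 8 basement membrane genes 2 were called higher, the nidogen gene nid-1 (0.42 ± 0.08, adjusted p = 0.0106) and the laminin gene lam-1 (0.38 ± 0.07, adjusted p = 0.0116). Nidogen gene nid-1 was called higher in the other 3 strains too (0.37 to 0.55), and lam-1 was not (0.11 to 0.17).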

How the data were processed

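Footprint counts per gene, deposited by the authors as whole numbers, were used for 43 libraries. The reads were mapped with Bowtie, per the submitters' processing notes. The version, build, annotation and treatment of multi-mapping reads are not given in the sources used here. The authors also deposited log2 values, found from the table to be log2(count + 8) after scaling all libraries of a course to one total,  26096086 (first course) or 12019637 (second course). They served as an alternative only.

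Of 20182 rows, 1 repeated another and was left out. Symbols came from WormBase identifiers (18778 matched) or sequence names (2), and 1401 identifiers, with 0.841% of counts, had none. Positions and coding lengths are those of the WBcel235 annotation. TMM factors were computed once from all 43 libraries over 13767 genes. Genes that reached 1 CPM in 5 or more of the fitted libraries were tested with edgeR 4.0.16's quasi-likelihood test (R 4.3.3), with Benjamini-Hochberg adjustment over all genes tested. Within a strain the fit held 9 libraries (7 residual degrees of freedom). The late strain contrasts used 27 libraries with hour as a factor (14 residual degrees of freedom), and let-7(n2853) against N2 used 18 (7). The 8 h cycle was fitted with limma 3.58.1. The fits were also run on simulated data with a constant spread and no change between hours beyond the planted effect. Such data do not show how the tests behave where hours differ in stage. DESeq2 1.42.0, other scalings, windows, periods and filters and leaving out each hour were the alternatives.

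The 7 genes, the muscle lists and the markers were chosen with earlier results of these data known. Named beside the 7 genes were lin-41, up to 4 genes per muscle list with the smallest p among those called in N2 late against early, and for each of the 7 the 3 genes of mean at least 20 CPM with the highest correlation. No sequence was used. Counting error was at most 2.42% for the 7 genes.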

Additional observations from a re-analysis of the deposited data

Results flagged for a closer look

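In 4 of 56 windows of 4 or 5 libraries, 1 hour stood apart from the others of its window for 1 of the 7 genes. Chance flags about 1 in 20 groups. In lin-41(xe11) the early library at 22 h held 10860 CPM of unc-54, with the other 3 early libraries between 8698 and 8936 CPM. The same library held 2949 CPM of unc-15, with the others between 2415 and 2418 CPM. Twitchin gene unc-22 was high at 30 h in the late window of let-7(n2853), at 743.6 CPM against 636.3 to 651.2 CPM. It was also high at 30 h in the double mutant, at 1087 CPM against 891.3 to 938.9 CPM.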

How the results depend on the processing

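The number of the 7 genes called moved under some alternatives. No change called as reported took another sign, while 30 uncalled ones did under at least 1 alternative, as unc-54 late against early in N2 (0.01 with DESeq2's size factors). None of these was called with the other sign (lowest adjusted p 0.389). Fitted amplitudes of the 8 h cycle cannot be negative, so for them the sign says nothing. Late against early, let-7(n2853) had 2 genes called with library totals, DESeq2 or the deposited log2 values, and the double mutant had 1 with DESeq2's size factors, library totals, DESeq2, the deposited log2 values or wider windows. In the late window, lin-41(xe11) against N2 had 1 with DESeq2. From 34 h onward, a comparison chosen after seeing the data, N2 had 2 with DESeq2's size factors or DESeq2, and 7 with library totals or the deposited log2 values. Library totals move the median of all genes in N2 to −0.19 late against early and to −0.23 from 34 h onward. The 8 h cycle was called in 0 genes of N2 with a period of 7 or 9 h, 18 to 36 h only, no filter or edgeR. In let-7(n2853) it was 1 with 7 h, a quadratic trend or no filter, 0 with 9 h and 3 with the deposited log2 values. In lin-41(xe11) it was 0 with 7 or 9 h, 3 with a quadratic trend and 2 with 18 to 36 h or the deposited log2 values. In the double mutant it was 2 with a quadratic trend or 18 to 36 h and 1 with the deposited log2 values. Leaving out 1 hour gave 0 to 1 late against early in each of the 4 strains and 0 to 0 in the strain contrasts. From 34 h onward it gave 2 to 4 (N2), 0 to 0 (let-7(n2853)), 1 to 2 (lin-41(xe11)) and 0 to 3 (double mutant). For the cycle it gave 0 to 1, 1 to 2, 0 to 3 and 0 to 2 in the same order. Over all genes, calls late against early ran from 690 to 2760 in N2 (1755 as reported), 1159 to 3130 in let-7(n2853) (2271), 642 to 2698 in lin-41(xe11) (1873) and 260 to 2071 in the double mutant (1365). The late contrasts gave 2 to 131 for lin-41(xe11) (57) and 4 to 372 for the double mutant (114). From 34 h onward they ran from 1608 to 4906 (3888), 2 to 1020 (14), 162 to 3256 (2314) and 64 to 2806 (1670) in the order above. For the cycle they ran from 0 to 1272 (1024), 0 to 3912 (3645), 0 to 3035 (2778) and 0 to 2632 (2364). The cause of these moves was not tested. With 1 library per strain and hour, hours that differ in developmental stage enter the error of the comparisons between windows of a strain. Between strains the error holds how the strain difference varies over the hours. Differences smaller than these spreads could not be detected.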

Other observations

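At 30 h all 7 genes except myo-3 stood above both neighbouring hours in each of the 4 strains. For unc-54 in N2 the values at 28, 30 and 32 h were 9472, 10770 and 9414 CPM, for unc-15 they were 2642, 3070 and 2625 CPM, and for unc-22 they were 924.8, 1132 and 946 CPM. The gene myo-3 was above both neighbours at 30 h in 2 of 4 strains, N2 and let-7(n2853). This was seen after the values were known and was not tested.

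From 34 h onward the other muscle lists moved in different directions in N2, where 31.7% of all genes were called in either direction and the median change of all genes was −0.12. Of 20 muscle excitation and calcium genes 12 were called lower and none higher (median −0.50), and of 7 tested muscle transcription factors 5 were called lower (median −0.57). Of 19 thin filament genes 1 was called higher and 5 lower (median −0.00), and of 18 genes of dense bodies, M-lines and attachments 1 was called higher and 5 lower (median −0.15). Of 13 myosin light chain, assembly and giant protein genes 1 was called lower (median −0.12), and of 8 basement membrane genes 2 were called higher (median 0.19). The nonmuscle myosins nmy-1 and nmy-2, which act in cell division and cell shape, had a median change of 0.93, and 1 of 2 was called higher. Neuron markers (8 of 10 lower), intestine markers (4 of 7 lower) and germline markers (7 of 12 higher and 1 lower) moved over the same hours, and their part in these changes was not tested.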
